A study of Mus musculus with 4 samples.

Results

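Thyrotropes were picked out here as pituitary nuclei rich in Tshb transcripts: 648 of the 35615 nuclei that passed the limits on genes and mitochondrial counts, or 1.82%. A nucleus was taken when it had at least 500 genes, under 5% mitochondrial counts, at least 4 Tshb molecules, at least 8 Tshb molecules per 10000 of its own, and at most 1 molecule of Gnrhr, Ghrhr and Pappa2 together, which mark gonadotropes and somatotropes. Molecules are unique molecular identifiers (UMIs), each counted once per original transcript. The data were 4 single-nucleus libraries of whole pituitary glands from wild-type UM-HET3 mice, a genetically heterogeneous stock. The labels give a library of males and a library of females at 5 months and the same at 22 months, and values below are given in that order. Every library pooled 3 snap-frozen glands and aimed at 10000 nuclei, all animals were untreated as far as the labels say, and no group had a second library. The nuclei were not sorted, and glands of a pool cannot be told apart, so differences between labelled groups have no replicate check and were not tested.

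The sex-chromosome transcripts of 2 libraries went against their labels. Among the thyrotrope nuclei, Xist had 0, 0, 2281 and 1540 counts and the Y-linked gene Uty had 201, 226, 0 and 1. Y-linked transcripts without Xist were thus found under the label of 5-month females, and Xist without Y-linked transcripts under that of 22-month males. Both libraries labelled 5-month were alike in these transcripts, as were both labelled 22-month, so labelled age and sex-chromosome content cannot be told apart in these libraries. If those 2 labels had been exchanged, the comparison given below for labelled age would be one of sex, and the one for labelled sex would be one of age. Groups are kept as labelled throughout. The libraries held 7999, 7420, 12066 and 8130 passing nuclei and gave 186, 175, 158 and 129 thyrotrope nuclei. Their median depth was 4015, 4440, 4941.5 and 7248 UMIs, against 3603, 3835.5, 4379 and 4994 over all passing nuclei. Across libraries 157 barcodes occurred in 2 libraries, and 3 thyrotrope nuclei had such a barcode, none of them a thyrotrope in both.

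Thyrotropes are the cells of the anterior pituitary that secrete thyrotropin, the hormone that drives the thyroid gland. Thyrotropin pairs a beta subunit of its own, encoded by Tshb, with the alpha subunit encoded by Cga that it shares with the gonadotropins. Hypothalamic thyrotropin-releasing hormone (TRH) acts on the receptor Trhr, which signals through Gq, phospholipase C and intracellular calcium, and thyroid hormone shuts the axis down through its receptor THRB. The deiodinase DIO2 makes the active hormone T3 inside the cell. The lineage depends on the transcription factors POU1F1 and GATA2.

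Promoters of the hormone subunit genes and of Dio2 are shown because Cga and Dio2 were higher where Tshb was higher in the comparison within thyrotropes described below. Each is the 300-base window from 250 bases before to 50 bases after the start site, from RefSeq on GRCm38.p6, in the gene's direction. Capitals mark the only match in each window to any of the 3 motifs searched on both strands. For POU1F1 the letters searched were TATNCAT. For the zinc finger family of GATA2 they were AGATAA. For the half-site of nuclear receptors such as THRB they were AGGTCA.
Promoter of Tshb, chr3:102782665-102782964, minus strand: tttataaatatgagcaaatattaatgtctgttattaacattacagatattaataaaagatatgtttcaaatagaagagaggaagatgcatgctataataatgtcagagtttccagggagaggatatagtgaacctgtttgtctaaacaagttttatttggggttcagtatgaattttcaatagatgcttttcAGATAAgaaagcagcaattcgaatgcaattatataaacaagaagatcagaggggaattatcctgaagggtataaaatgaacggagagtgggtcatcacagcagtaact
Promoter of Cga, chr4:34893529-34893828, plus strand: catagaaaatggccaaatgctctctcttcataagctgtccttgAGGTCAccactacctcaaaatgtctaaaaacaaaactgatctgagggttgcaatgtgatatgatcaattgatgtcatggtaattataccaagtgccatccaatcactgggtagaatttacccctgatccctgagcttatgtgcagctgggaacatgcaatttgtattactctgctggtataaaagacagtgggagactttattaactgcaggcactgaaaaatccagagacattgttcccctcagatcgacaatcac
Promoter of Dio2, chr12:90738989-90739288, minus strand: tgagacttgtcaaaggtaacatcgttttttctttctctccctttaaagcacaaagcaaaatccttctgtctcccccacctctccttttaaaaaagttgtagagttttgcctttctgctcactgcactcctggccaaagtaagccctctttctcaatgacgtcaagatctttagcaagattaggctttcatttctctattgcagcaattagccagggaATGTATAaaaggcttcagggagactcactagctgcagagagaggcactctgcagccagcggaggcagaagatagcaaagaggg
The Tshb window held AGATAA at -58 to -53 from the start site. In the Cga window AGGTCA lay at -207 to -202, and the Dio2 window held ATGTATA, the POU1F1 motif on the opposite strand, at -33 to -27. These letters are common: of 32851 windows of the same length from 27025 genes, 8.84% held TATNCAT, 11.2% AGATAA and 16.3% AGGTCA on either strand. The table used had no entry for Trhr. The RefSeq start site of Dio2 used here lies upstream of the gene end that GENCODE M21 gives for Dio2 below, so the 2 annotations differ in where the gene starts.

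Of the thyrotrope markers that had no part in choosing the nuclei, Trhr was detected in 370 of the 648, Dio2 in 299, and Trhr or Dio2 in 434. Cga was detected in 647, but also in 100%, 95.5%, 97.4% and 97.3% of macrophage nuclei, so its detection does not mark these nuclei. Trhr was found in 60.2%, 52.6%, 52.5% and 64.3% of the thyrotrope nuclei of the 4 libraries. Macrophage nuclei should lack Trhr and were taken as a background of free RNA and doublets. The shares in them were 3.13%, 2.27%, 2.63% and 1.82%, from only 1 of 32, 1 of 44, 2 of 76 and 2 of 110 nuclei. Dio2 was found in 39.8%, 38.3%, 37.3% and 76.7% of thyrotrope nuclei, against 3.13%, 0%, 0% and 5.45% of macrophage nuclei. In the 177, 167, 155 and 128 thyrotrope nuclei with at least 2000 UMIs, thinned to that number, the Dio2 shares were 25.4%, 23.4%, 19.4% and 50.8%, so the library labelled 22-month females stood highest at equal depth too. For Trhr it did not, as the thinned shares were 40.7%, 33.5%, 27.7% and 32.8%. Without thinning, Pou1f1 was found in 81.2%, 76.0%, 74.7% and 81.4%, but also in 43.8%, 29.5%, 35.5% and 31.8% of macrophage nuclei. The parts of free RNA and of doublets in the macrophage shares were not tested.

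Tshb itself (ENSMUSG00000027857, mm10 chromosome 3, 102775465 to 102782718, minus strand) chose the nuclei, so its level is a description. Its median per 10000 UMIs was 45.4, 32.8, 18.9 and 20.7, and the highest nucleus of each library reached 384, 256, 165 and 203. Thyrotrope nuclei with 4 or 5 Tshb UMIs, which also met the limit per 10000 UMIs, numbered 34, 43, 39 and 19. Trhr was found in 23.5%, 11.6%, 20.5% and 31.6% of them. Nuclei with 2 or 3, taken without a limit per 10000 UMIs, numbered 429, 541, 635 and 540, and Trhr was found in 2.10%, 2.03%, 4.41% and 8.15%. Of 230, 249, 273 and 240 passing nuclei with at least 4 Tshb UMIs, 204, 193, 174 and 139 met the limit per 10000. The rest are on neither side, so this contrast is not one across the UMI limit alone. Scrublet scored 10.2%, 11.4%, 15.2% and 10.1% of the thyrotrope nuclei at 0.15 or more as possible doublets, against 9.63%, 10.4%, 11.1% and 9.23% of all passing nuclei, and these were kept.

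Markers of other cells were present in the thyrotrope nuclei to unequal degrees. The 5 gonadotrope markers, of which Gnrhr is limited by the rule, summed to 55.4 to 141 CPM per library (counts scaled to 1000000 per sum), against 1836 to 5146 in gonadotrope nuclei. The 6 macrophage markers summed to 5.72, 37.4, 38.9 and 14.8 CPM, against 28.5, 33.6, 25.3 and 40.0 in all other nuclei. The 6 fibroblast and mural markers summed to 63.0, 101, 158 and 173 CPM, against 109, 103, 180 and 232 in all other nuclei and 24.5, 13.6, 70.2 and 68.0 in gonadotrope nuclei. The part of such cells in the results below was not tested. Prl reached 9384, 9404, 74184 and 26902 CPM, near the 16160, 8961, 67438 and 40406 CPM of all other nuclei, and the summed lactotrope markers ranged from 9928 to 74861 CPM in thyrotrope nuclei and from 9912 to 68380 in all others. Macrophage nuclei, which do not make hormones, held 56864 to 119861 CPM of Gh, Prl, Pomc, Lhb and Fshb together and thyrotrope nuclei 42937 to 111468. The part of free RNA or doublets in these sums and in the results below was not tested. Of the pars tuberalis markers Tac1 and Adora2b had 0 counts in every library, Mtnr1a and Nmu had 1 count each over all of them, and Eya3, which is widely expressed, made up the rest. In the tests below Eya3 passed as higher against all other nuclei and gonadotrope nuclei, and did not pass against somatotrope nuclei.

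The share of nuclei that met the Tshb limits was 2.33% (186 of 7999, exact Clopper-Pearson 95% interval 2.01 to 2.68), 2.36% (2.03 to 2.73), 1.31% (1.11 to 1.53) and 1.59% (1.33 to 1.88). Both libraries labelled 22-month lay below both labelled 5-month, with intervals that cover counting error only. The order of the labelled ages held at every other Tshb limit tried and after thinning to equal depth. It did not hold when nuclei were chosen on Trhr instead, a choice made after seeing the data. Nuclei with at least 2 Trhr UMIs, and with the same limit of 1 molecule of Gnrhr, Ghrhr and Pappa2 together, numbered 69, 77, 128 and 143, or 0.863%, 1.04%, 1.06% and 1.76% of passing nuclei, and after thinning to 2500 UMIs 0.426%, 0.535%, 0.399% and 0.560%.

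Tshb was lower in the Trhr-chosen nuclei of both libraries labelled 22-month. Its median per 10000 UMIs in them was 42.8, 38.3, 5.32 and 4.39. No Tshb molecule was counted in 5, 10, 28 and 25 of these nuclei. Of the Trhr-chosen nuclei 82.6%, 75.3%, 43.8% and 37.8% were also among the Tshb-chosen thyrotropes. With at least 3 Trhr UMIs the medians were 49.7, 43.3, 7.18 and 5.07, and with nuclei thinned to 2500 UMIs they were 44, 34, 16 and 8. The order of the labelled ages was therefore the same at each setting, while the gap was narrower at equal depth. Trhr is also known in lactotropes, and what the Trhr nuclei with little Tshb are was not resolved. Those with under 8 Tshb per 10000 UMIs numbered 12, 19, 71 and 88, and held Cga at 2164, 2601, 2661 and 3995 CPM, against 2307, 2233, 1624 and 1522 in all nuclei other than thyrotropes. Dio2 in them was at 96.9, 22.5, 107 and 476 CPM and Prl at 5700, 3493, 39150 and 21748 CPM.

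**Figure D1:**
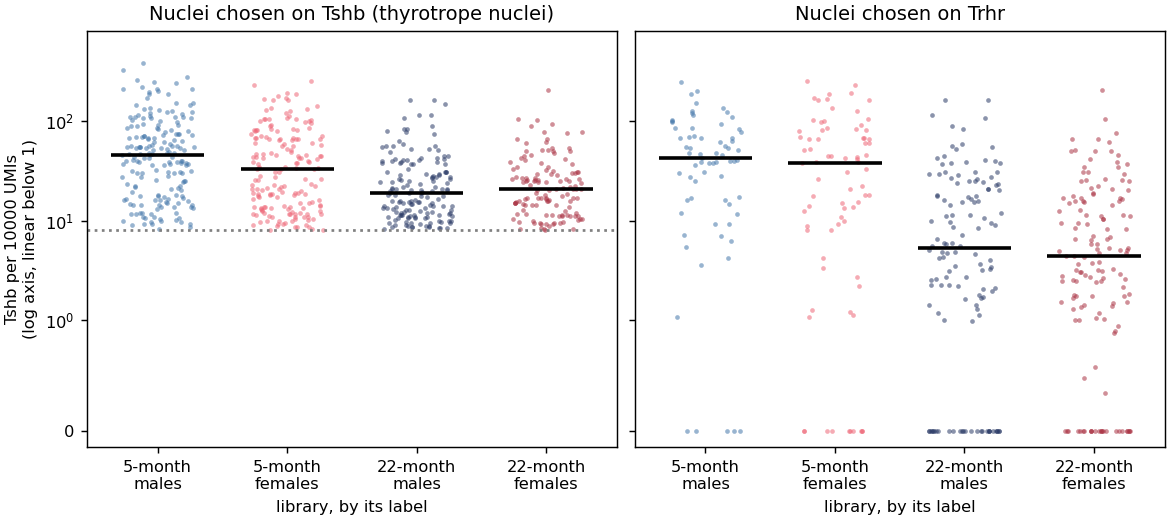
Tshb UMIs per 10000 UMIs (vertical axis, logarithmic and linear below 1) of single nuclei in the 4 labelled libraries, for nuclei chosen on Tshb (left, limit of 8 dotted) and on Trhr (right). Bars are medians. On the right they go from 42.8 and 38.3 in the libraries labelled 5-month to 5.32 and 4.39 in those labelled 22-month, with single nuclei overlapping widely.

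The thyrotrope nuclei were next set against all other passing nuclei by edgeR's quasi-likelihood test on counts summed per library, with the library as a block. Levels in these class comparisons are CPM scaled by TMM factors. Of 17626 genes tested, 981 were higher (5.57%) and 1237 lower (7.02%) in thyrotropes at an adjusted p under 0.05. An adjusted p here measures agreement over 4 pools, which are not replicates of 1 group. Cga (ENSMUSG00000028298, chromosome 4, 34893779 to 34907370) was at 10055, 9150, 6115 and 7903 CPM in thyrotropes and 2239, 2111, 1653 and 1538 in the other nuclei. Its log2 fold was 2.13 (SE 0.10, adjusted p = 2.24e-10). All thyrotrope sums lay above all others, and the background is not near 0. The other nuclei include gonadotropes, which make Cga, and nuclei with Tshb that did not meet the limits. The parts of these nuclei, of free RNA and of doublets in that background were not tested.

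The TRH receptor stood out further. Trhr (ENSMUSG00000038760, chromosome 15, 44196135 to 44235912) was at 269, 259, 226 and 230 CPM against 2.51, 4.08, 6.02 and 9.28, a log2 fold of 5.58 (SE 0.24, adjusted p = 4.38e-11). Of 16 tested genes of the TRH receptor list 6 were higher (Trhr, Plcb1, Itpr1, Prkca, Rgs4, Stim1) and 1 lower (Itpr2), and the list's median log2 fold was 0.22 against -0.05 over all genes. Plcb1, a phospholipase C that Gq activates, was at 2080, 2031, 2303 and 2888 CPM against 411, 582, 613 and 729 (log2 fold 2.01, SE 0.10). Rgs4, which shortens Gq signals, was at 59.8, 58.8, 16.4 and 37.1 CPM against 10.9, 8.44, 4.91 and 6.23 (log2 fold 2.46, SE 0.20). Gnaq, the Gq alpha subunit itself, had a log2 fold of 0.18 (adjusted p = 0.321). Against the gonadotrope nuclei described below the list went both ways. Of 12 tested genes 5 were higher there (Trhr, Plcb1, Plcb4, Prkca, Stim1) and 3 lower (Itpr1, Prkcb, Rgs4), where 10.5% of all genes were higher and 11.2% lower. The list's median log2 fold there was 0.04 against 0.00 over all genes, so higher Rgs4 and Itpr1 do not set thyrotropes apart from gonadotropes.

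Of 19 tested genes of thyroid hormone feedback 4 were higher and 1 was lower. Dio2 (ENSMUSG00000007682, chromosome 12, 90724552 to 90738438) was at 188, 174, 145 and 604 CPM in thyrotropes and 7.42, 8.41, 11.6 and 34.5 elsewhere, a log2 fold of 4.19 (SE 0.14, adjusted p = 4.95e-12). The library labelled 22-month females was highest in both classes. Slc16a10, which carries thyroid hormone across the membrane, had a log2 fold of 2.35 (SE 0.29), Rxrg, a partner of the thyroid hormone receptors, 1.46 (SE 0.12) and Thrb 0.51 (SE 0.10, adjusted p = 0.00153). Thra, the other receptor gene, had a log2 fold of -0.29 (adjusted p = 0.256).

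Among 14 tested genes of the thyrotropin subunits and the enzymes that finish their sugar chains, 3 were higher and 2 lower. The sulfotransferase genes Chst9 and Chst8, whose products can add the sulfate of pituitary glycoprotein hormones, went opposite ways. Chst9 was at 364, 465, 545 and 656 CPM against 12.8, 12.02, 56.3 and 65.9 (log2 fold 4.13, SE 0.26), and Chst8 at 12.2, 10.5, 79.5 and 88.5 against 35.5, 32.2, 183 and 259 (log2 fold -1.43, SE 0.13). The mannosidase gene Man2a1 was higher (log2 fold 0.74) and the sialyltransferase gene St6gal1 lower (log2 fold -1.33).

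Of 21 tested lineage transcription factors 7 were higher and 4 lower. Gata2 was at 45.4, 60.9, 36.2 and 30.4 CPM against 17.7, 23.8, 9.0 and 11.6 (log2 fold 1.5, SE 0.16, adjusted p = 4.15e-06). Zfpm2, a partner of GATA factors, had a log2 fold of 2.49, Isl1 2.27, Foxl2 2.26 and Nr4a1 2.66. Pou1f1, which somatotropes and lactotropes also use, was at 640, 557, 471 and 435 CPM against 535, 433, 447 and 452 (log2 fold 0.16, adjusted p = 0.338). In prohormone processing, 5 of 13 genes were higher and none lower, led by the granin gene Chgb at 3355, 3226, 3269 and 3039 CPM against 809, 849, 1418 and 1031 (log2 fold 1.69, SE 0.12). Of 23 exocytosis genes 7 were higher and 2 lower, and of 18 genes of the unfolded protein response Sdf2l1 alone passed, being higher.

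The highest log2 folds among genes that passed with the same sign in all libraries began with Npy5r, a neuropeptide Y receptor, at 17.7, 19.9, 14.02 and 5.71 CPM against 0.0909, 0.112, 0.225 and 0.0636 (6.74, SE 0.52, adjusted p = 6.74e-08). Cftr, a chloride channel gene, was at 31.0, 17.8, 33.9 and 49.5 CPM against 0.848, 0.363, 0.914 and 1.25 (5.30, SE 0.35). Jph4, Cltrn, Col24a1 and Stac were also among the 8 highest, with log2 folds of 4.48 to 4.20. The collagen gene Col24a1 was even across libraries, at 138, 132, 143 and 126 CPM. At the other end Col4a6, a basement membrane collagen gene, had no count in thyrotropes and was at least 7.55-fold lower over the pooled libraries, and Ebf2 at least 5.27-fold lower, with 3 counts as the floor over the pooled libraries.

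**Figure D2:**
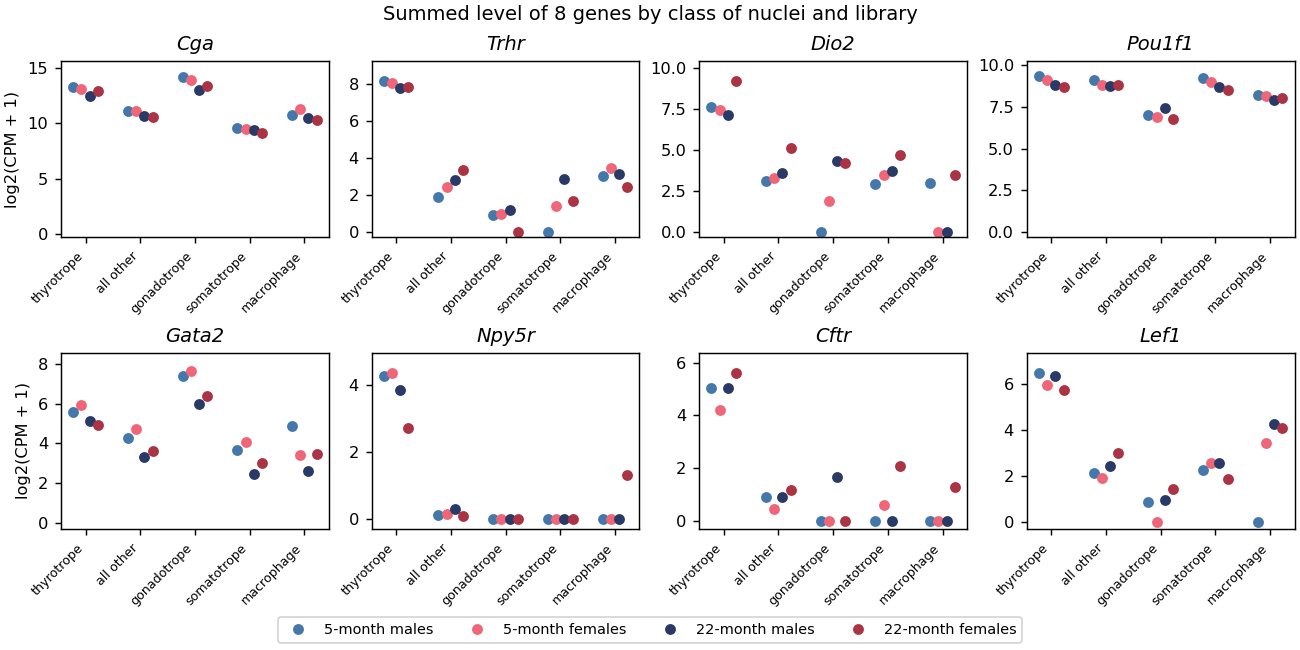
Levels as log2(CPM + 1) (vertical axis) of 8 genes in 5 classes of nuclei, 1 point per library. Trhr, Npy5r and Cftr are high in the thyrotrope nuclei of all 4 libraries, and Pou1f1 is about as high in all other and in somatotrope nuclei. Cga is higher in the gonadotrope nuclei of each library, a difference that was marginal in the test described below.

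Gonadotropes, which share Cga and Gata2 with thyrotropes, were taken as 867 nuclei with at least 3 Gnrhr and at most 1 Tshb UMI. Of 10809 genes tested, 1131 (10.5%) were higher and 1209 (11.2%) lower in thyrotropes. Trhr was at 283, 274, 228 and 233 CPM against 0.773, 0.846, 1.23 and 0 (log2 fold 8.13, SE 0.28, edgeR adjusted p = 2.52e-06). Pou1f1 was at 672, 588, 475 and 439 CPM against 121, 109, 165 and 108 (log2 fold 2.10, SE 0.17). Gata2 was lower than in gonadotropes, at 47.7, 64.3, 36.6 and 30.8 CPM against 154, 187, 61.1 and 84.3 (log2 fold -1.38, SE 0.17). Nr5a1, the gonadotrope factor, had a log2 fold of -3.84 and Foxl2 -0.98, and Isl1 had -0.36 (adjusted p = 0.305). Among 20 tested lineage factors 3 were higher and 8 lower.

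Vdr, the vitamin D receptor gene, and Lef1, a transcription factor of the Wnt pathway, followed Trhr among the highest. Lef1 was at 88.4, 64.3, 84.9 and 53.8 CPM against 0.773, 0, 0.922 and 1.70 (log2 fold 6.19, SE 0.33). Vdr had a log2 fold of 6.29 (SE 0.34), and Thrb (1.52) and Rxrg (3.16) were among the 5 of 15 feedback genes that were higher. Chgb was higher (log2 fold 2.42) while Scg2, another granin gene, was lower at 743, 827, 696 and 557 CPM against 2814, 2634, 879 and 1001 (log2 fold -1.20). The genes of MHC class I presentation that passed, B2m, H2-D1, H2-K1 and Tapbp, were all higher, 4 of 7 tested, with a median log2 fold of 0.67 against 0.00 over all genes. Reads of H2-D1 and H2-K1, close copies of each other, can be split uncertainly by the counting. In DESeq2 1 of the 7 was higher. Against all other nuclei 0 of 14 genes of that list passed in edgeR or in DESeq2, and 1 was higher and 3 lower at an unadjusted p under 0.05.

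The difference in Cga between thyrotropes and gonadotropes was marginal. It was at 10562, 9660, 6173 and 7986 CPM in thyrotropes and 17728, 14688, 7915 and 10649 in gonadotropes, lower in each library (log2 fold -0.53, SE 0.16, edgeR adjusted p = 0.0471). The edgeR adjusted p was 0.0597 to 0.167 with any 1 library left out, and 0.310 with no library block. It was 0.0550 without possible doublets and 0.113 with at least 8 Tshb UMIs. With plain totals it was 0.0266 and with no low-count filter 1.45e-06, and the DESeq2 adjusted p was 0.00932. Leaving out the library labelled 5-month females took the count of higher genes from 1131 to 716, and scaling by plain totals gave 786 higher and 1651 lower genes.

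Somatotropes, which share Pou1f1, were taken as 1017 nuclei with at least 3 Ghrhr, at most 1 Gnrhr and at most 1 Tshb UMI. Of 11230 genes tested, 1043 (9.29%) were higher and 1149 (10.2%) lower in thyrotropes. Pou1f1 was level between them, at 630, 549, 446 and 417 CPM against 620, 521, 425 and 368 (log2 fold 0.09, SE 0.10, edgeR adjusted p = 0.594). The factors Isl1 (log2 fold 3.85), Foxl2 (4.04), Zfpm2 (4.17) and Gata2 (2.11) were higher, and 9 of 17 lineage factors were higher and 1 lower. Of 12 genes of prohormone processing and granins 10 were higher and none lower, with a median log2 fold of 0.75 against 0.01 over all genes, and 7 were higher in DESeq2. Chgb was at 3303, 3180, 3096 and 2915 CPM against 516, 511, 1043 and 678 (log2 fold 2.25), and the convertase gene Pcsk1 had a log2 fold of 1.40.

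Stac, which encodes an adaptor of voltage-gated calcium channels, had the highest log2 fold after Trhr (6.39, SE 0.43), at 157, 24.8, 117 and 52.9 CPM against 0, 1.63, 2.10 and 0. Rgs4 and the dopamine receptor gene Drd3 were also among the 8 highest, with 5.40 and 5.28. The adenylyl cyclase gene Adcy2 was among the lowest, at 24.0, 34.1, 22.1 and 14.6 CPM against 362, 386, 417 and 369 (log2 fold -4.03, SE 0.17). Of 4 tested hormones of other cells Gh was lower (log2 fold -1.98), and Prl and Pomc were higher. Against gonadotropes Prl and Pomc were also higher, and Lhb and Fshb lower. Somatotrope nuclei had median depths of 5637, 6031, 6582.5 and 7440 UMIs, and gonadotrope nuclei 5003, 5665.5, 7730.5 and 8929. The part of free RNA and of depth in these comparisons was not tested. Steroid receptors and estrogen-responsive genes were 1 higher and 5 lower of 9 tested.

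**Figure D3:**
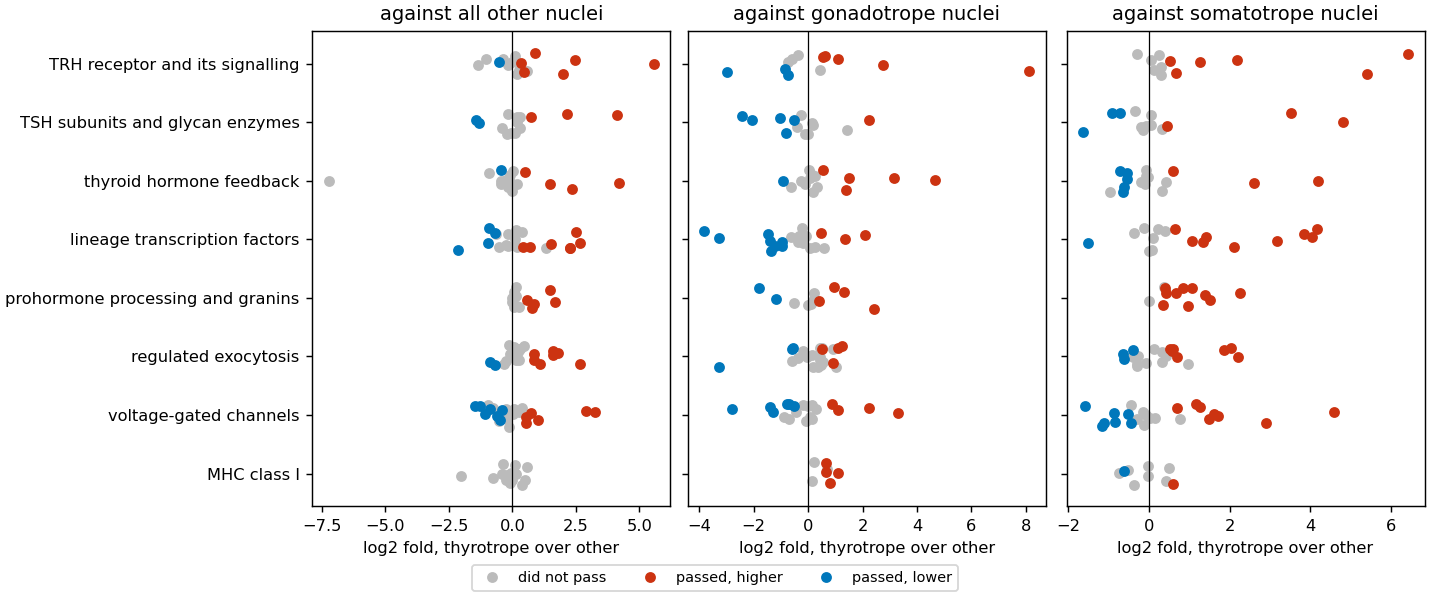
Log2 folds (horizontal axis) of every tested gene of 8 lists (rows) in thyrotropes against all other, gonadotrope and somatotrope nuclei. Red points passed higher, blue passed lower and grey did not pass. The prohormone and granin genes lie mostly to the right against somatotropes, where 10 of 12 passed, and the lineage factors go both ways against gonadotropes.

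Within the thyrotropes, nuclei were ranked by Tshb per 10000 UMIs in each library and divided into 3 equal parts, and the highest part was set against the lowest, a range along 1 gene and not 2 types. Of 5950 genes tested, 158 (2.66%) were higher and 169 (2.84%) lower in the Tshb-high nuclei. Cga was at 14744, 12898, 7461 and 9031 CPM against 4727, 6205, 4392 and 5873 (log2 fold 1.02, SE 0.15, edgeR adjusted p = 1.57e-05). Trhr was at 305, 370, 337 and 268 CPM against 152, 162, 96.2 and 162 (log2 fold 1.16, SE 0.17), and Dio2 at 211, 272, 196 and 766 against 122, 124, 99.0 and 470 (log2 fold 0.87, SE 0.16). Every library showed each of these differences, but the parts were cut on the Tshb value that also chose the nuclei. The lowest part therefore lies nearest the limit, and in thyrotrope nuclei with 4 or 5 Tshb UMIs Trhr was found in only 11.6% to 31.6%. How far the cut itself makes these differences was not tested. Plcb1, Prkca and Rgs4 also rose, making 4 of 10 tested genes of the TRH receptor list with none lower, and Chst9 (log2 fold 1.24), B4galnt3 and Cga made 3 of 9 in the subunit and glycan list.

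Of 12 tested lineage factors Zfpm2 (log2 fold 0.58) and Nr4a1 (1.56) were higher and none was lower. In DESeq2 0 of the 12 passed, and 2 of the 10 genes of the TRH receptor list were higher. Gata2 had a log2 fold of 0.08 (adjusted p = 0.957) and Pou1f1 0.30 (adjusted p = 0.293). The list's median log2 fold was 0.28, that of the TRH receptor list 0.26 and that of all genes 0.01. The highest log2 fold belonged to Il34, a ligand of the macrophage receptor CSF1R, at 65.3, 115, 10.3 and 100 CPM against 3.81, 17.7, 2.83 and 39.2 (2.13, SE 0.36). Jph4 (1.80), which joins the plasma membrane to calcium stores, was also among the 8 highest. Inpp4b (-2.61), Egfem1 (-2.56) and the splicing factor gene Rbfox1 (-2.21, at 49.7, 81.8, 82.5 and 47.4 CPM against 229, 592, 173 and 266) were lowest.

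Hormones of other cells were lower in the Tshb-high nuclei. Gh, Prl, Pomc, Lhb and Fshb summed to 39543, 27452, 80375 and 22722 CPM there and to 92367, 107628, 132007 and 70815 CPM in the Tshb-low nuclei, and the part of this in the other differences was not tested. The count of genes along this range was fragile: of 327, there were 169 without nuclei scored as possible doublets, 49 when thyrotropes needed at least 8 Tshb UMIs, 189 without the library labelled 5-month males, 188 without that labelled 5-month females, 77 in DESeq2 and 15 with no library block.

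Between the labelled ages, 7233 genes had enough counts, and 83 (1.15%) were higher and 48 (0.664%) lower in thyrotropes of both libraries labelled 22-month. These counts include sex-chromosome genes, such as Xist, Tsix, Kdm6a and Ddx3x among the higher and Uty, Eif2s3y, Ddx3y and Kdm5d among the lower. A gene was counted when both libraries of 1 side were at least 2-fold above both of the other, with at least 20 counts in each on the higher side. Fewer transcripts of a gene in a nucleus and fewer nuclei that carry it cannot be told apart in a sum. Levels from here on are plain CPM, and folds are of TMM-scaled CPM with 95% binomial intervals that cover counting error only. Of the 83 higher genes 55 met the same rule in all other nuclei of these libraries, where 1.34% of the 7233 did. Of the 48 lower genes 16 did, against 0.442%. Among the lower genes 11 were at least 2-fold higher in thyrotropes than in other nuclei of both libraries labelled 5-month, as were 2.93% of the 7233. Among the higher genes 3 had such a lead in both labelled 22-month, against 2.67%. Choosing genes for a high level in the thyrotropes of 1 side itself favours such a lead, so nothing is read from these counts.

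Ttn showed the widest gap among the lower genes outside the Y chromosome. It encodes titin, the giant spring protein of muscle sarcomeres, and lies on chromosome 2, 76703980 to 76982547 (ENSMUSG00000051747). It was at 501, 296, 16.7 and 6.46 CPM, and detected in 119, 83, 11 and 7 nuclei. The fold of 22-month over 5-month was 0.0354 (0.0196 to 0.059) in libraries labelled male and 0.0215 (0.00857 to 0.0449) in those labelled female. Other nuclei held 14.6, 20.1, 7.45 and 7.59 CPM, and gonadotrope nuclei 77.7, 71.8, 19.6 and 23.6, also lower in both libraries labelled 22-month. In the Trhr-chosen nuclei Ttn was at 540, 390, 9.36 and 13.5 CPM. In the libraries labelled 5-month 82.6% and 75.3% of those nuclei are the same thyrotropes, so these are largely the same counts.

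Ryr3, which encodes a calcium release channel, was at 260, 148, 46.7 and 46.1 CPM against 39.7, 42.7, 13.6 and 10.7 in other nuclei, with folds of 0.191 and 0.306. Of 19 exocytosis genes with enough counts 1 was called, Sytl5, a Rab27 effector. It was at 41.2, 38.4, 6.67 and 12.9 CPM, while other nuclei ran the other way at 2.43, 2.42, 3.97 and 7.82. Opcml, a cell adhesion gene, was at 316, 107, 37.8 and 16.6 CPM against 47.4, 47.6, 46.7 and 31.2 elsewhere, with folds of 0.127 and 0.153. In the Trhr-chosen nuclei, with the same overlap, Sytl5 was at 55.5, 55.8, 7.28 and 8.53 CPM and Ryr3 at 280, 180, 49.9 and 48.4.

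Most of the higher genes, 55 of 83, were also higher outside thyrotropes. Reln, a secreted matrix protein gene, was at 0, 0, 137 and 155 CPM in thyrotropes and 1.81, 2.07, 363 and 707 elsewhere, and Nrxn3 at 51.5, 58.1, 528 and 963 against 246, 201, 1128 and 1750. Chst8 was at 12.6, 10.4, 75.6 and 85.8 CPM, the peptide gene Gal at 4.58, 8.30, 71.1 and 60.0, and the estrogen-responsive gene Greb1 at 11.4, 23.9, 100.03 and 167, each also higher in other nuclei. The calcium channel gene Cacna1c, the 1 called of 16 voltage-gated channel genes with enough counts, was at 229, 223, 601 and 496 CPM against 207, 307, 579 and 689 elsewhere. Cntn6, a contactin adhesion gene, was at 1.14, 2.08, 45.6 and 42.4 CPM in thyrotropes and 1.998, 2.81, 3.81 and 6.44 elsewhere. Its thyrotrope sums were only 1, 2, 41 and 46 molecules. Cntn6, Frmpd4 and Luzp2 were the 3 higher genes with the lead over other nuclei described above, singled out after their values were seen. Luzp2 was at 43.5, 46.7, 181 and 149 CPM against 14.4, 23.3, 23.8 and 21.1. Because the choice of genes favours that lead, it does not set these 3 apart from the other higher genes.

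None of the 4 thyrotrope markers met the rule for labelled age in nuclei chosen on Tshb, whose level the choice itself limits. Averaged over libraries labelled male and female, the log2 fold of Cga was -0.50, and -0.98 in the Trhr-chosen nuclei. The fold of 22-month over 5-month was 0.82 (0.675 to 0.995) and 0.858 (0.716 to 1.03) for Trhr, 0.595 and 0.835 for Cga and 0.72 and 0.754 for Pou1f1, in libraries labelled male and female. Trhr was at 278, 256, 215 and 223 CPM, and its levels lay close together. Dio2 was at 195, 172, 138 and 586 CPM, with folds of 0.753 (0.593 to 0.955) and 3.35 (2.82 to 4.00), so the single library labelled 22-month females stood apart. Of 15 listed genes of the thyrotropin subunits and glycan enzymes, 12 had enough counts and Chst8 alone was called.

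**Figure D4:**
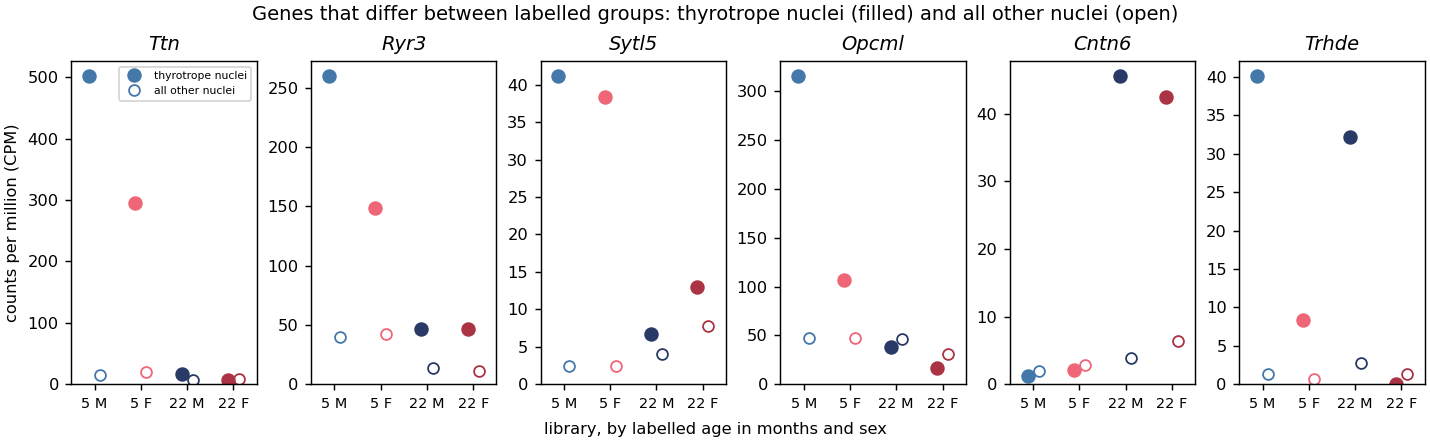
CPM (vertical axis) of 6 genes in the 4 labelled libraries, with filled points for thyrotropes and open points for all other nuclei. Ttn, Ryr3, Sytl5 and Opcml are lower in the thyrotropes of both libraries labelled 22-month, Cntn6 is higher, and Trhde is low in both libraries labelled female.

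Between the labelled sexes, 7137 genes had enough counts, and 12 (0.168%) were higher and 11 (0.154%) lower in both libraries labelled female. Of these 23 genes 0 met the rule in all other nuclei, where 4 of the 7137 (0.056%) did, so nothing is read from that count. Trhde, which encodes the membrane enzyme that degrades TRH, was at 40.1, 8.30, 32.2 and 0 CPM (ENSMUSG00000050663, chromosome 10, 114398823 to 114802307). Its transcripts were counted in 21, 5, 18 and 0 nuclei. The fold of female over male was 0.218 (0.0872 to 0.477) at 5 months and at most 0.0835 at 22 months, with a floor of 3 counts. Other nuclei held 1.31, 0.651, 2.73 and 1.32 CPM. In the Trhr-chosen nuclei, many of them the same thyrotropes, it was at 37.8, 12.6, 32.2 and 4.98 CPM.

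Stac was at 165, 24.9, 118 and 53.5 CPM, with folds of female over male of 0.159 and 0.442, against 3.65 to 6.71 elsewhere. Col11a1, a fibrillar collagen gene, was at 97.3, 12.5, 129 and 24.0 CPM, but other nuclei also held 59.7, 25.1, 83.8 and 78.0. Among the higher genes Onecut2, a transcription factor gene, was at 9.16, 22.8, 5.56 and 32.3 CPM against 7.21, 8.13, 3.34 and 3.78 elsewhere. Snhg11, a long noncoding RNA, was at 355, 736, 283 and 831 CPM, and Pcdh7 at 52.7, 112, 45.6 and 264. With nuclei chosen on Trhr 6 genes met the rule in place of 23, and with at least 50 counts 5 did.

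Single libraries had genes of their own, at least 4-fold above each other library with at least 20 counts. The library labelled 5-month males had 4 of 7201 (0.0555%), that labelled 5-month females 4 of 7471 (0.0535%), that labelled 22-month males 4 of 6991 (0.0572%) and that labelled 22-month females 31 of 7691 (0.403%). Its thyrotropes were also the fewest and the deepest, with a median of 7248 UMIs, and the part of depth was not tested. Fos, an immediate-early gene, led in the library labelled 5-month males at 83.6, 9.34, 1.11 and 7.38 CPM, and other nuclei of that library held 72.7 CPM. In the library labelled 5-month females Htr7, a serotonin receptor gene, was at 28.01 CPM in 18 nuclei, while 92.4% of the Igkc counts came from 1 nucleus. In the library labelled 22-month males 85.7% of Fgf10 and 92.6% of Plppr1 counts came from 1 nucleus.

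Of the 31 genes of the library labelled 22-month females, 1 met the rule in all other nuclei, where 3 of the 7691 (0.039%) did. Of the 31, 22 were at least 2-fold higher in its thyrotropes than in its other nuclei, as were 4.85% of the 7691, and the choice of genes high in these thyrotropes itself favours such a lead. Brinp3 (ENSMUSG00000035131, chromosome 1, 146494760 to 146902472) was at 1.14, 0, 4.45 and 293 CPM, 64.0-fold (24.7 to 236) over the library labelled 22-month males. It was found in 41 of its 129 thyrotropes and in 1, 0 and 1 nuclei of the others. Gonadotrope nuclei held Brinp3 in every library, at 165, 131, 99.7 and 79.8 CPM. Il1rapl2, an X-linked member of the interleukin 1 receptor family, was at 33.2, 215, 227 and 2761 CPM, against 53.3, 144, 685 and 1183 in other nuclei. Shc3, a signalling adaptor gene, was at 0, 10.4, 5.56 and 121 CPM and found in 55 nuclei. Nupr1, at 90.4 CPM in 16 nuclei, had 31.6% of its counts from 1 nucleus, and all Hormad1 counts came from 1 nucleus.

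Nuclei with Brinp3 lay near those without it in depth and Tshb. Those with it had a median of 7280 UMIs and 18.8 Tshb per 10000, and the 88 without had 6974 and 21.01. Shc3 was found in 25 of the 41 and 30 of the 88, Il1rapl2 in 35 and 40, and Dio2 in 38 and 61. Several genes outside the naming rule were singled out after their values were seen. Kcnt2, a potassium channel gene, reached 129 CPM in 34 nuclei, Ntng1, a netrin-G adhesion gene, 390 CPM in 69, the calcium-sensing receptor gene Casr 27.7 CPM in 15, and the opioid receptor gene Oprm1 76.6 CPM in 26. Galntl6, at 544 CPM in 29 nuclei, had 25.1% of its counts from 1 nucleus. In the Trhr-chosen nuclei of this library, of which 37.8% are the same thyrotropes, Brinp3 was at 323 CPM, Shc3 at 103 and Kcnt2 at 140, each under 28 in the other libraries.

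**Figure D5:**
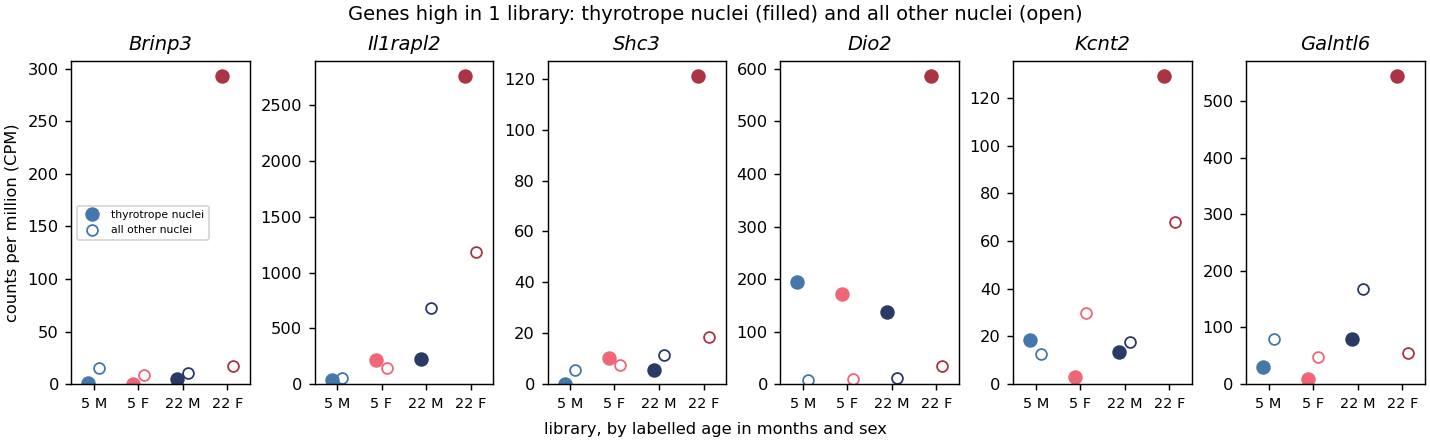
CPM (vertical axis) of Brinp3, Il1rapl2, Shc3, Dio2, Kcnt2 and Galntl6 in the 4 labelled libraries, filled for thyrotropes and open for all other nuclei. The thyrotropes of the library labelled 22-month females stand above those of the other libraries for all 6 genes, with Brinp3 at 293 CPM against at most 4.45.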

How the data were processed

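Nuclei of mouse pituitary glands were profiled in 4 libraries. Per the file headers, the authors made the deposited UMI counts with Cell Ranger 7.0.1, and per the submitters' processing notes the build is mm10. The handling of intronic reads was not given in the sources used here. Barcodes had been selected before deposit. The matrices hold 32285 genes.

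Raw counts were summed per library and class and tested with edgeR 4.0.16 (R 4.3.3), TMM factors, its low-count filter and Benjamini-Hochberg adjustment over all genes kept. Both sums of a library come from the same 3 glands, so the library was a block, which left 3 residual degrees of freedom. Tshb, Gnrhr, Ghrhr, Pappa2, the gate genes of the compared class and mitochondrial genes were left out of the rows tested. Macrophage nuclei had at least 2 Mrc1 or Ptprc UMIs and at most 1 Tshb UMI. Scrublet was run through scanpy 1.11.5, and DESeq2 1.42.0 was an alternative. The scripts were tested on simulated data.

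Named genes were the 4 markers, the 8 highest and 8 lowest log2 folds that passed with the same sign in all 4 libraries and at least 50 counts, the 10 of each direction for labelled age and sex, the 5 largest of each library, and members of the lists. Gene models with names of the kind Gm or Rik were counted and not named. The members, lists and rules were chosen with earlier results of these data known. Nuclei chosen on Trhr (at least 2 Trhr UMIs and at most 1 of Gnrhr, Ghrhr and Pappa2 together), and the tests on 2 libraries, were added after seeing the data. Positions are from GENCODE M21.

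Library totals were 33328821, 35240987, 65773807 and 49262366 UMIs in 8343, 7765, 13595 and 8509 barcodes. Intervals cover counting error only.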

Additional observations from a re-analysis of the deposited data

Results flagged for a closer look

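5 genes had effects that went opposite ways in the labelled groups, each with a 95% interval of counting error on its own side of 1. The difference of effects was not tested, because each group is 1 library. Only Cga, Trhr, Dio2 and the genes named for labelled age, labelled sex or 1 library were searched, so nothing is read from the count of 5. Plppr1 and Nkain2 were named for being at least 4-fold above each other library in that labelled 22-month males. This choice fixed in advance the direction of the folds of 10.0 and 0.249 given below. For Cga the fold of females over males was 0.913 at 5 months and 1.28 at 22 months. For Dio2 the fold of 22-month over 5-month was 0.753 in libraries labelled male and 3.35 in those labelled female. For Stac the same folds were 0.76 and 2.12. For Plppr1 they were 10.0 and 0.27, with 92.6% of the counts of the library labelled 22-month males in 1 nucleus. For Nkain2 the fold of females over males was 8.33 at 5 months and 0.249 at 22 months. For all 5 genes the libraries labelled 5-month females and 22-month males, whose sex-chromosome transcripts went against their labels, enter these folds, and their part was not tested.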

How the results depend on the processing

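Against all other nuclei 2218 genes passed, 844 with no replicate block (the library term left out), and 1743 to 1888 with any 1 library left out. Against gonadotropes 2340 passed, 1458 in DESeq2, 1518 with no replicate block and 1610 to 1819 with 1 library left out. Scaling by plain totals there gave 32.3% of passing genes higher in place of 48.3%, and moved the median log2 fold of all genes from 0.00 to -0.13. Against somatotropes 2192 passed, 1283 in DESeq2, 1316 with no replicate block and 1571 to 1857 with 1 library left out. Along the Tshb range 327 passed, 77 in DESeq2, 15 with no replicate block, 169 without possible doublets, 49 with at least 8 Tshb UMIs and 188 to 327 with 1 library left out. In DESeq2 45 were higher and 32 lower, or 58.4% higher. With only the libraries whose sex-chromosome transcripts match their labels, 1457, 993, 1173 and 105 genes passed in these 4 comparisons, in that order. No gene named from the tests changed sign, and no gene that passed in both the analysis and an alternative did so.

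For labelled age 131 genes met the rule and 69 with at least 50 counts. With nuclei chosen on Trhr 128 were higher and 43 lower, of which 55 and 20 were shared with the 83 and 48. For labelled sex 23 met the rule, 5 with at least 50 counts, 15 with at least 8 Tshb UMIs and 6 with nuclei chosen on Trhr. For single libraries 43 did, and 21 with at least 50 counts. Shares of thyrotropes were 1.68%, 1.58%, 0.762% and 1.24% with at least 8 Tshb UMIs, 1.86%, 1.66%, 0.713% and 0.996% with at least 16 per 10000, 3.67%, 3.64%, 2.10% and 2.81% thinned to 5000 UMIs and 5.56%, 6.24%, 3.76% and 4.10% thinned to 2500. Chosen on Trhr they were 0.863%, 1.04%, 1.06% and 1.76%. The causes of these changes were not tested, beyond the fewer libraries and nuclei that some settings leave. With 129 to 186 nuclei a library, genes under 20 counts could not be read between labelled groups.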

Other observations

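The circadian and channel lists, not described above, had members called both ways in thyrotropes against all other nuclei, where 5.57% of all genes were higher and 7.02% lower. Of 18 clock genes 4 were higher and 2 lower, led by Rorb, a nuclear receptor gene, at 1134, 1208, 1320 and 1197 CPM against 332, 391, 352 and 414 (log2 fold 1.71, SE 0.10, edgeR adjusted p = 1.3e-09). Hlf, a clock output factor, had a log2 fold of 1.06 (SE 0.13). Of 25 voltage-gated channel genes 6 were higher, among them the potassium channel genes Kcnb2, Kcnd2 and Kcnh7, and 7 were lower, among them Cacna1a, Cacna1e, Cacna2d1 and Cacna2d3. The list's median log2 fold was -0.23 against -0.05 over all genes. Of 12 steroid receptors and estrogen-responsive genes 1 was higher and 4 were lower, including Esr1 at 311, 348, 502 and 627 CPM against 519, 653, 701 and 969 (log2 fold -0.69, SE 0.10). Of 13 hypothalamic and local receptors Drd2 alone passed, being lower (log2 fold -1.18, SE 0.15), a share near that of all genes.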
